A study of Mus musculus with 6 samples.

Results

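7SK RNA and the proteins that hold or form P-TEFb were followed across freshly sorted muscle stem cells (MuSCs) of dystrophic and non-dystrophic mice. The 8 genes were taken by symbol from the 22706 genes of the deposited table: Rn7sk, which encodes 7SK RNA, its protein partners Larp7 and Mepce, the inhibitors Hexim1 and Hexim2, the kinase gene Cdk9 and its cyclin genes Ccnt1 and Ccnt2. They were selected on their function and on the levels of Rn7sk and its partners in these same 6 libraries, all of which were known, so their levels and differences are given as a description and no p-value is read for them.

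Total RNA of MuSCs was depleted of ribosomal RNA and sequenced in 6 libraries, with 2 libraries in each of 3 groups. Control mice were wild type. In mdx mice the dystrophin gene is mutated, which makes them a common model of Duchenne muscular dystrophy. Sirt6mKO/mdx mice are mdx mice with floxed Sirt6 and the Pax7ICN Cre, which is driven by the MuSC gene Pax7. Sirt6, the gene of a histone deacetylase of the sirtuin family, is thereby deleted, per the study, in the skeletal muscle lineage. The labels give the strain of the mice as C57BL/6 and no age. Approximate depth ran from 4397300 to 9743941 reads per library. Nothing in the labels says whether a library came from 1 animal or from several, so the spread given below is that between 2 libraries.

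Several facts of these libraries bear on every comparison. The normalised read count of Sirt6, which is summed over the whole gene and so covers more than the deleted exons, stood at 41 and 32 (Control), 33 and 40 (mdx) and 37 and 30 (Sirt6mKO/mdx). A lower level of Sirt6 was not detectable there (log2 fold change against mdx -0.12, SE 0.50, limma with Benjamini-Hochberg adjusted p = 0.912), and this value cannot check the deletion. Sirt6mKO/mdx therefore stands below for the libraries so labelled. The study itself reports efficient deletion by genotyping PCR in MuSCs of floxed mice with this Cre. By RT-qPCR it also reports more Sirt6 RNA in mdx than in control MuSCs, a difference that was 0.0042 (SE 0.50) in these values. Xist, the RNA of the inactive X chromosome of female cells, was at 16772 and 12950 in Control and at 7 to 34 in the other 4 libraries, while Ddx3y of the Y chromosome was at 3 and 8 in Control and at 1024 to 1767 elsewhere. For in vivo work with these genotypes the study names male mice, which the sex-linked RNA of the Control libraries does not match. Genotype and this difference in sex-linked RNA cannot be told apart in a comparison with Control. The MuSC marker Pax7 was at 2167 to 3236 in every library, and 8 of 10 MuSC markers were not called in mdx against Control. The other 2, Sdc4 (log2 fold change -2.69) and Chrdl2 (-2.36), fell there. Of the leukocyte and macrophage markers, Ptprc was at 0 to 19, Lyz2 rose in mdx (3.22, from 0 and 14 to 47 and 26) and Cd68 fell (-1.60, from 86 and 88 to 30 and 26). In sorted bulk cells, fewer cells of a type and less RNA per cell cannot be told apart.

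7SK is a short nuclear RNA made by RNA polymerase III. It is capped by MEPCE, protected at its 3′ end by LARP7, and together with HEXIM1 or HEXIM2 it holds P-TEFb, the pair of CDK9 and cyclin T1 or T2, in an inactive particle. Released P-TEFb phosphorylates RNA polymerase II, NELF and DSIF, and thereby lets polymerases that paused near a promoter go on into the gene. P-TEFb is known to matter for genes that are switched on quickly, and cyclin T1 and T2 have been linked to muscle differentiation.

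The parts of 7SK that its partners bind are at its ends, and both are shown so that the RNA measured here can be recognised. Rn7sk (ENSMUSG00000065037) is a single exon of 331 bases on the minus strand of chromosome 9 (GRCm38, chr9:78175303-78175633), annotated by GENCODE as a miscellaneous RNA. The first stretch covers bases 1 to 110 (chr9:78175524-78175633), and the second bases 262 to 331 (chr9:78175303-78175372). Both are written 5′ to 3′ on the RNA strand with T for U. Capitals mark GATC in the first stretch, the letters of the motif that HEXIM proteins are known to bind in the first hairpin of 7SK, and the last T bases in the second, the end that LARP7 is known to bind.
7SK, 5′ stretch: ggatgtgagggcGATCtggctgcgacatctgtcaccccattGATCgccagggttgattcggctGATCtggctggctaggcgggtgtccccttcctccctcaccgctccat
7SK, 3′ stretch: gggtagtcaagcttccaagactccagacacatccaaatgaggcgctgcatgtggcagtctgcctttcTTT
The letters GATC, which read the same on both strands, start at bases 13, 42 and 64 of the RNA and are found nowhere else in it. Among 129282 annotated transcripts of at least 331 bases, 61.9% held GATC at least once in their first 331 bases and 7.99% held it at least 3 times. These matches describe the sequence and are not a measurement of binding.

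Rn7sk was among the most abundant RNAs of these cells and, with values as deposited, its level differed between all 3 groups. The 2 Control libraries held 93611 and 75143 normalised reads of Rn7sk, the mdx libraries 305947 and 213198, and the libraries labelled Sirt6mKO/mdx 593895 and 1116360. Both mdx libraries lay above both Control libraries, and both Sirt6mKO/mdx libraries lay above both mdx libraries. As a share of all values of a library, Rn7sk took 1.41% and 1.35% (Control), 4.79% and 3.8% (mdx) and 6.17% and 12.6% (Sirt6mKO/mdx). It ranked 7 and 5 among all genes in Control and 2 and 2 in mdx, and it was the most abundant gene of Sirt6mKO/mdx replicate 2.

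**Figure D1:**
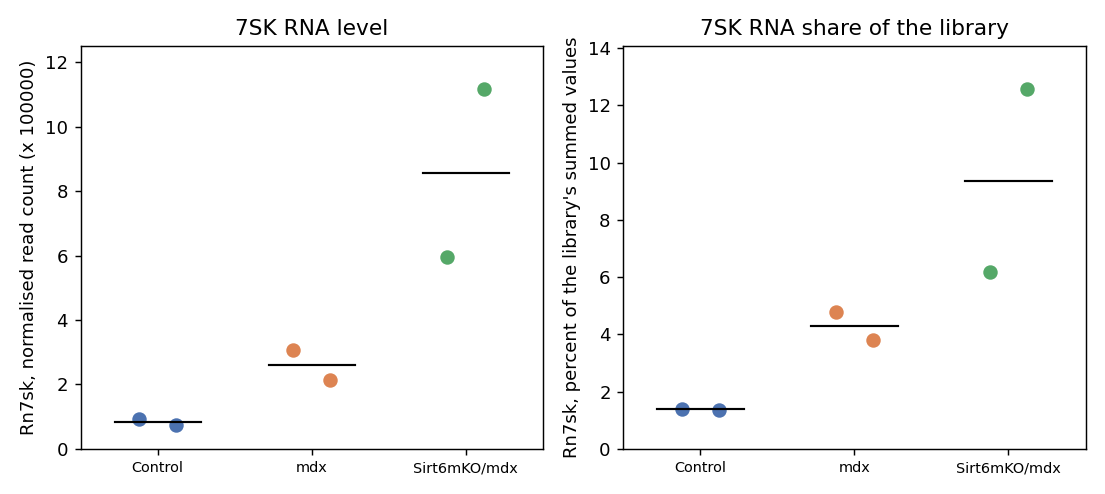
Rn7sk in each library, on the left as the normalised read count in units of 100000 and on the right as the percent of the summed values of the library. Each point is 1 library and each line the mean of the 2 libraries of a group; the Control libraries sit at 1.41% and 1.35% and Sirt6mKO/mdx replicate 2 at 12.6%, apart from its replicate at 6.17%.

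On the log2(value + 1) scale, Rn7sk differed by 1.61 between mdx and Control (3.05-fold), by 1.67 between Sirt6mKO/mdx and mdx (3.19-fold) and by 3.28 between Sirt6mKO/mdx and Control (9.71-fold). The SD of its own libraries around their group means was 0.45. The SE that limma gave was larger, 1.97, since its prior variance follows abundance. With 1 prior variance for all genes the SE was 0.42. Sirt6mKO/mdx replicate 2 carried much of the last step. Without it the difference from mdx was 1.22, and without Sirt6mKO/mdx replicate 1 it was 2.13.

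How large the difference appeared depended on what the libraries were scaled to, and the mixture of RNA classes differed between groups. snoRNAs, the small RNAs that guide modification of ribosomal RNA, took 12.4% to 18.1% of the values in Control, 12.2% to 17.8% in mdx and 26.7% to 28.2% in Sirt6mKO/mdx. Protein-coding genes took 63.4% and 78.8% (Control), 62.1% and 65.9% (mdx) and 39.7% and 42.8% (Sirt6mKO/mdx). Relative to the sum of all snoRNA values, Rn7sk stood at 7.79% and 10.9% (Control), 26.9% and 31.1% (mdx) and 23.1% and 44.6% (Sirt6mKO/mdx). On that scale mdx lay above Control without overlap, and Sirt6mKO/mdx overlapped mdx.

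The median log2 fold change of the 200 snoRNA genes with a mean of at least 50 was 0.71 in mdx against Control, 1.44 in Sirt6mKO/mdx against mdx and 2.14 in Sirt6mKO/mdx against Control. Rn7sk exceeded these medians by 0.89, 0.23 and 1.14. Of the 200 snoRNA genes, 33 had a larger difference than Rn7sk in the first comparison, 70 in the second and 13 in the third. Of 45 snRNA genes, which encode the RNAs of the spliceosome and their relatives, 8, 32 and 16 did, and of 31 other miscellaneous RNAs 6, 15 and 3. In Sirt6mKO/mdx against mdx the median of the snRNA genes was 2.10, higher than the value of Rn7sk (a difference of -0.43 for Rn7sk from that median), and that of the other miscellaneous RNAs was 1.64. Of 9160 protein-coding genes with the same minimum mean, 274, 288 and 29 had a larger difference. The part of these RNA classes in the value of Rn7sk was not tested.

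The other short RNAs made by RNA polymerase III differed among themselves in mdx. Rpph1 and Rmrp are the RNAs of RNase P and RNase MRP, Rny1 and Rny3 are Y RNAs, and Vaultrc5 is a vault RNA. Between mdx and Control their log2 fold changes were -0.41 for Rpph1, -0.04 for Rmrp, 0.82 for Rny1, 1.67 for Rny3 and 2.28 for Vaultrc5, and 2 of the 5 were called by the limma test. Between Sirt6mKO/mdx and mdx they ran from 1.1 to 2.47, and 2 of the 5 were called. The value of Rn7sk divided by that of Rpph1 was 0.876 and 2.08 (Control), 4.49 and 6.66 (mdx) and 1.89 and 6.49 (Sirt6mKO/mdx). The same ratio to Rny3 was 27.9 and 35.2, then 28.2 and 31.9, then 21.8 and 53.0. The ratio to Rpph1 was higher in both mdx libraries than in both Control libraries, whereas the ratio to Rny3 overlapped between all groups.

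**Figure D2:**
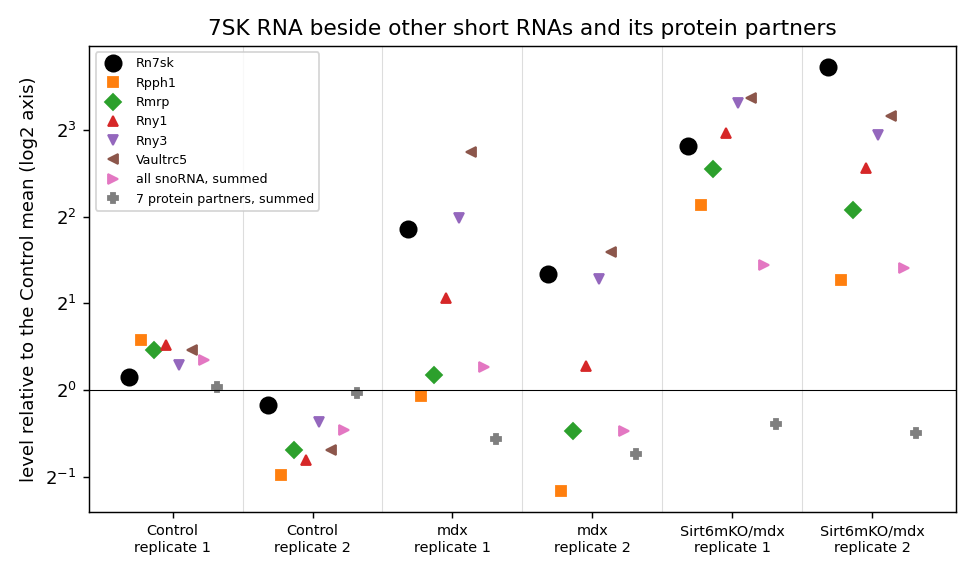
Level of Rn7sk, of 5 other short RNA polymerase III RNAs, of all snoRNAs summed and of the 7 protein partners of 7SK summed, in each library, relative to the mean of the Control libraries on a log2 axis. Rn7sk and the other short RNAs sit high in both Sirt6mKO/mdx libraries, while the summed partners lie below the Control mean in the mdx and Sirt6mKO/mdx libraries.

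The value of Rn7sk carries a limit of its own. Reads that matched several places in the genome were left out of the counts by the authors, and 75.6% of the 25-base words of Rn7sk occur in at least 1 of 46 other annotated genes. The 40 of these genes that are in the table summed to 8.19% and 2.1% (Control), 0.683% and 0.82% (mdx) and 1.78% and 0.713% (Sirt6mKO/mdx) of the Rn7sk value. Of the 50-base words of Rn7sk, 68.1% occur in another annotated gene. Reads from copies and from Rn7sk may thus have been lost or exchanged. The shares given count only reads kept for the copies, so how many reads of Rn7sk were left out was not measured.

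With values as deposited, the mRNAs of the 7 protein partners showed no single direction. In mdx against Control the limma test called 0 of the 8 genes higher and 2 lower. Of the 15915 genes tested, 14.2% were called in that comparison, 6.89% higher and 7.34% lower. In Sirt6mKO/mdx against mdx it called 0 of the 8 (2 at an unadjusted p under 0.05), beside 8.17% of all genes (5.62% higher, 2.54% lower). In Sirt6mKO/mdx against Control it called 1 lower, beside 7.87% of all genes (5.19% higher, 2.68% lower). A gene was called at an adjusted p of at most 0.05 and an absolute log2 fold change of at least 1. These counts describe genes chosen with their values known, and nothing is read from them. The genes called were Mepce and Cdk9 in mdx against Control and Ccnt1 in Sirt6mKO/mdx against Control. The difference of Mepce was -0.88 without Control replicate 1, and that of Ccnt1 -0.76 without Control replicate 2. Both are under the minimum fold. The counts moved with the scaling, as the counts over all genes did. Scaled to the same total, 2, 1 and 4 of the 8 were called in the 3 comparisons, each lower, beside 14.0%, 21.4% and 19.8% of all genes. Scaled by snoRNAs, 4, 3 and 7 were called lower, beside 24.6%, 51.4% and 75.8%. Scaled to the total of protein-coding genes, limma called 2, 0 and 0 lower (5, 2 and 2 at an unadjusted p under 0.05), beside 15.7%, 8.31% and 8.74%.

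All 7 partners are protein-coding genes on GRCm38. Larp7 lies on the minus strand (chr3:127536954-127553348), as do Mepce (chr5:137781906-137786715), Cdk9 (chr2:32705784-32713076) and Ccnt1 (chr15:98538689-98570923). Hexim1 (chr11:103116325-103119725) and Hexim2 (chr11:103132429-103139876) are neighbours on the plus strand of chromosome 11, and Ccnt2 (chr1:127774164-127808061) is on the plus strand of chromosome 1.

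Larp7 and Mepce encode the constant partners of 7SK. Larp7 was at 118 and 162 (Control), 217 and 221 (mdx) and 175 and 162 (Sirt6mKO/mdx). It was the one partner whose mdx libraries both lay above Control, with a log2 fold change of 0.66 (SE 0.29), which was 0.43 without Control replicate 1 and turned to -0.06 when libraries were scaled by their snoRNAs. Mepce, the capping enzyme, was at 411 and 240 (Control), 136 and 124 (mdx) and 200 and 190 (Sirt6mKO/mdx). Its mdx libraries were the lowest (log2 fold change -1.27, SE 0.30), although Control replicate 1 set much of this difference, which was -0.88 without that library.

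Hexim1 and Hexim2 encode the inhibitors that silence P-TEFb within the particle. Hexim1 was at 1273 and 889 (Control), 612 and 529 (mdx) and 990 and 853 (Sirt6mKO/mdx). Its mdx libraries lay below all others, with log2 fold changes of -0.90 (SE 0.26) against Control and 0.69 in Sirt6mKO/mdx against mdx, the latter -0.69 when scaled by snoRNAs. Hexim2 was low throughout, at 63 and 44 (Control), 92 and 38 (mdx) and 91 and 102 (Sirt6mKO/mdx). The mdx libraries of Hexim2 spanned those of Control, and its difference of 0.17 turned to -0.46 without mdx replicate 1. Both Sirt6mKO/mdx libraries of Hexim2 lay above Control (log2 fold change 0.86, SE 0.45, and -1.22 when scaled by snoRNAs).

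Cdk9, the kinase of P-TEFb, was at 347 and 300 (Control), 144 and 140 (mdx) and 254 and 227 (Sirt6mKO/mdx). The replicates were close and the 3 groups did not overlap. The log2 fold change of Cdk9 was -1.18 (SE 0.26) in mdx against Control, 0.75 in Sirt6mKO/mdx against mdx and -0.42 in Sirt6mKO/mdx against Control. The middle difference was 0.13 when libraries were scaled to the same total and -0.62 when scaled by snoRNAs. The exons of Cdk9 share 82 bases with Mir2861 and 73 bases with Mir3960 on the same strand.

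Ccnt1 and Ccnt2 encode the cyclins that CDK9 needs for activity. Ccnt1 was at 702 and 998 (Control), 505 and 461 (mdx) and 378 and 454 (Sirt6mKO/mdx). All 4 libraries of the mdx background were below Control, with log2 fold changes of -0.79 in mdx and -1.01 in Sirt6mKO/mdx (SE 0.26 for each). Without Control replicate 2 these were -0.54 and -0.76. Ccnt1 shares 695 exonic bases with the antisense gene 9330020H09Rik, and whether the counting used strand is not stated, so reads of these genes cannot be told apart. Ccnt2 was at 563 and 683 (Control), 597 and 533 (mdx) and 512 and 428 (Sirt6mKO/mdx). Its mdx libraries overlapped Control (log2 fold change -0.14, SE 0.24, and 0.03 when scaled to the total of protein-coding genes).

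**Figure D3:**
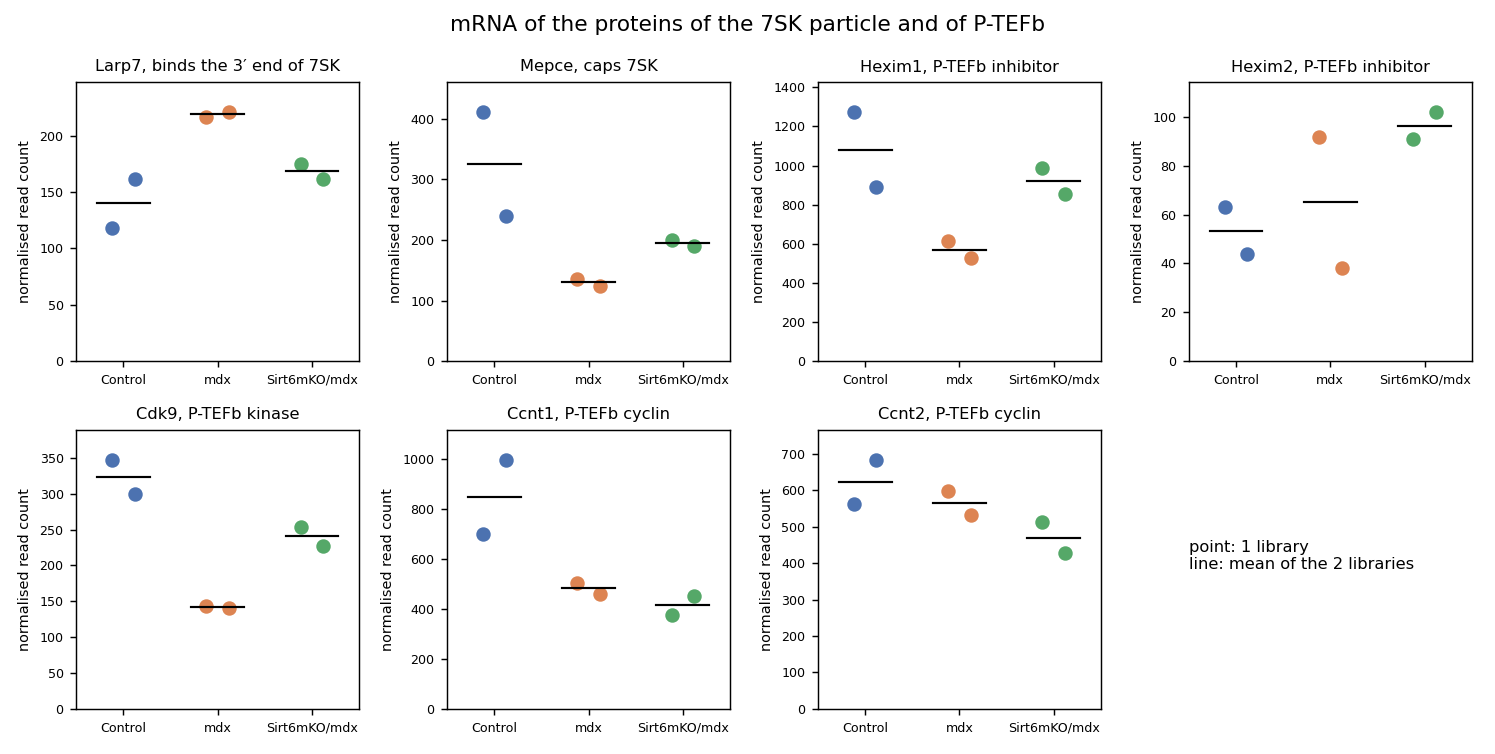
Normalised read count of the 7 protein partners of 7SK RNA in each library, each panel with an axis from 0. Each point is 1 library and each line the mean of a group; Mepce, Hexim1 and Cdk9 are lowest in both mdx libraries, Larp7 is highest there, and Ccnt1 is below Control in both other groups.

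The 8 genes fell into different patterns over the groups, without a single order. By group mean, Mepce, Hexim1 and Cdk9 were highest in Control, lowest in mdx and between in Sirt6mKO/mdx, with no overlap between mdx and either other group. Larp7 was highest in mdx, also without overlap. Ccnt1 and Ccnt2 had their lowest group mean in Sirt6mKO/mdx. Across the 7 protein partners the median log2 fold change was -0.79 in mdx against Control, 0.58 in Sirt6mKO/mdx against mdx and -0.40 in Sirt6mKO/mdx against Control, beside medians of 0.000701, 0.023 and 0.00589 over all genes tested. The libraries of mdx lay above those of Control without overlap for 2 of the 8 genes and below for 4, where 57.0% of all genes tested did not overlap (28.7% higher, 28.3% lower). For Sirt6mKO/mdx against mdx the counts were 4 higher and 3 lower, beside 56.0% of all genes (28.8% and 27.2%). For Sirt6mKO/mdx against Control they were 2 higher and 4 lower, beside 51.6% (26.3% and 25.3%).

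Levels of different genes were compared per kilobase of exon. In Control, Hexim1 was the most abundant partner with 309 normalised reads per kilobase, followed by Ccnt1 with 92.8, Mepce with 91.6, Cdk9 with 70.2, Larp7 with 59.2, Ccnt2 with 50.5 and Hexim2 with 22.5. Neighbours from Ccnt1 to Ccnt2 in this order overlapped in their 2 libraries. In mdx the order below Hexim1 with 163 changed to Larp7 with 92.6, Ccnt1 with 52.7, Ccnt2 with 45.8, Mepce with 36.6, Cdk9 with 30.8 and Hexim2 with 27.4, where Hexim2 alone overlapped its neighbours. In Sirt6mKO/mdx it was Hexim1 with 264, Larp7 with 71.2, Mepce with 54.9, Cdk9 with 52.2, Ccnt1 with 45.4, Hexim2 with 40.7 and Ccnt2 with 38.1, and neighbours from Mepce onward overlapped.

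The balance between paralogs shifted as well. Hexim1 per kilobase was 13.7 times Hexim2 in both Control libraries, 4.52 and 9.45 times in mdx, and 7.39 and 5.68 times in Sirt6mKO/mdx. Ccnt1 per kilobase was 1.68 and 1.97 times Ccnt2 in Control, 1.14 and 1.17 times in mdx, and 0.995 and 1.43 times in Sirt6mKO/mdx. Both ratios were highest in the Control libraries, without overlap with the other groups.

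Set beside its partners, 7SK RNA was in large excess in every library. Rn7sk per kilobase divided by the sum of the 7 partners per kilobase was 375 and 356 (Control), 1930 and 1540 (mdx) and 3040 and 6220 (Sirt6mKO/mdx). Relative to Larp7 alone the ratio was 5670 and 3320, then 10100 and 6900, then 24300 and 49300. Relative to Hexim1 it was 776 and 892, then 5280 and 4260, then 6330 and 13800. Relative to Cdk9 it was 3760 and 3490, then 29600 and 21200, then 32600 and 68500. The 3 groups did not overlap in these ratios. They are ratios within a library, so the scaling of libraries does not enter them. The mixture of RNA classes, which differed between groups, does enter them, since a short RNA is divided by mRNAs. Between Sirt6mKO/mdx and mdx the median log2 fold change was 1.44 for snoRNA and 2.10 for snRNA genes, beside 1.67 for Rn7sk. The part of that mixture in the ratios was not tested. The ratios set an RNA beside mRNAs and say nothing of protein amounts.

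**Figure D4:**
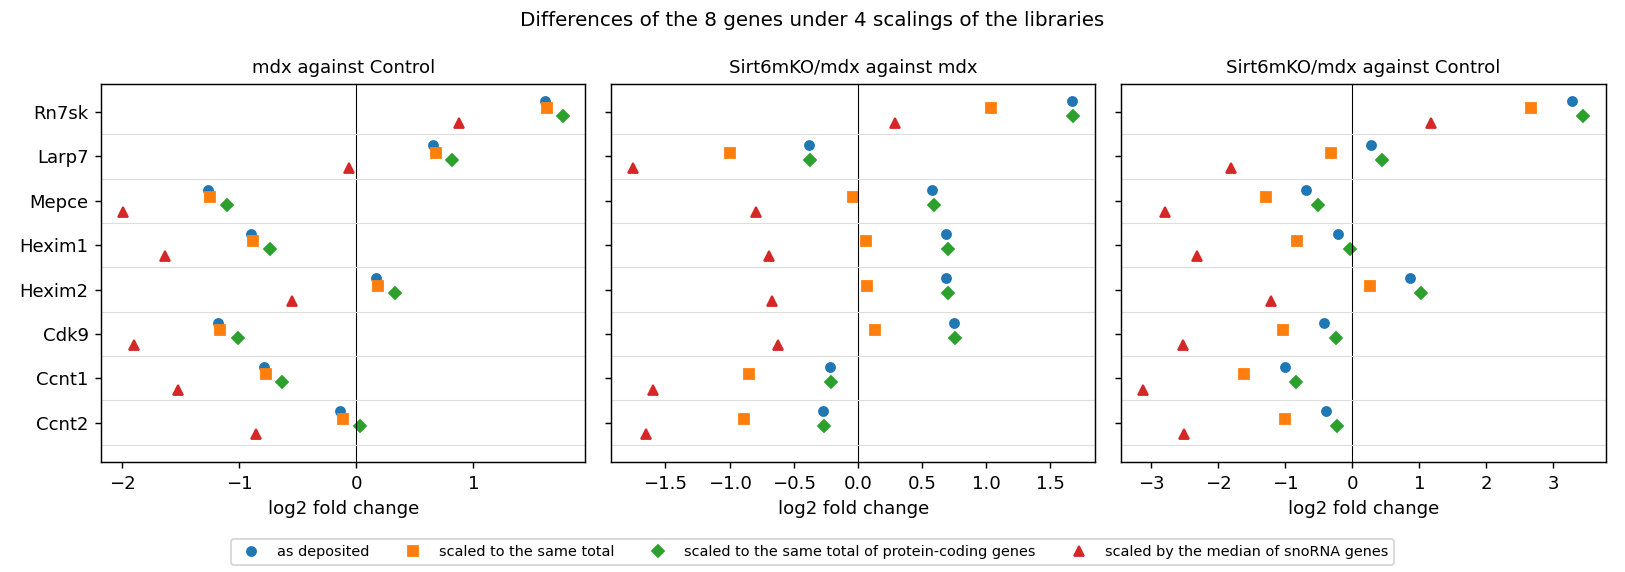
Log2 fold change of the 8 genes in 3 comparisons when values were used as deposited, scaled to the same total, scaled to the same total of protein-coding genes, or scaled by the median of snoRNA genes. Rn7sk lies above 0 in every panel and under every scaling, at 0.29 to 1.68 in Sirt6mKO/mdx against mdx, whereas Mepce, Hexim1, Hexim2 and Cdk9 in that comparison change sign when scaled by snoRNAs (Mepce also when scaled to the same total).

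Scaling to the same total moved the median of all genes tested to -0.58 in both comparisons of Sirt6mKO/mdx and to 0.03 in mdx against Control. Under it the differences between Sirt6mKO/mdx and mdx were -1.0 for Larp7, -0.85 for Ccnt1 and -0.89 for Ccnt2, and between -0.04 and 0.13 for Mepce, Hexim1, Hexim2 and Cdk9. A scaling moves all genes of a library alike, so differences relative to the median of all genes stay nearly as they were. In mdx against Control the lower values of Mepce, Hexim1, Cdk9 and Ccnt1 held under all 4 scalings shown.

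The other genes of the pathway were read from 5 lists with 74 genes, of which 73 were tested. Called genes made up 9.59% of these in mdx against Control (3 higher, 4 lower) and 5.48% in each other comparison (3 higher and 1 lower against mdx, 1 higher and 3 lower against Control). The share of all genes called was 14.2%, 8.17% and 7.87%. The median log2 fold changes of the 73 genes were -0.05, 0.02 and -0.13. When libraries were scaled to the same total, 20 were called lower and 0 higher in Sirt6mKO/mdx against mdx, and 20 lower and 1 higher against Control. Over all genes the same scaling called 18.4% lower and 3.01% higher, and 16.9% lower and 2.86% higher. Leaving out some of the single libraries lowered both counts. In Sirt6mKO/mdx against mdx, limma called 0 without either mdx or either Sirt6mKO/mdx library, with 8 to 15 at an unadjusted p under 0.05, and the share called over all genes was 1.28% to 3.02%. Against Control, 0 were called without Sirt6mKO/mdx replicate 2 (11 at an unadjusted p under 0.05), 1 without replicate 1, 2 higher and 0 lower without Control replicate 2 (16 at an unadjusted p under 0.05), and 1 higher and 1 lower without either mdx library, and under these omissions 1.34% to 5.61% of all genes were called. In mdx against Control, 4 were called without Control replicate 1 and 3 without mdx replicate 1, beside 8.74% and 5.9% of all genes. Of the 7 genes called there, 3 (Jmjd6, Ell2 and Ccnc) were called under every omission of a library, and of the 4 called in each other comparison 0 were.

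RNA polymerase III and the factors of the 7SK type of promoter showed no common direction. Of 24 genes, 1 was called in each comparison. Polr3f, a subunit of RNA polymerase III, was at 86 and 87 (Control), 255 and 193 (mdx) and 65 and 108 (Sirt6mKO/mdx). It rose in mdx (log2 fold change 1.35, SE 0.34, limma adjusted p = 0.015) and was lower again in Sirt6mKO/mdx (-1.39 against mdx, limma adjusted p = 0.0212). The first call was lost without Control replicate 1 or either mdx library, and the second without any 1 of the 4 libraries compared. Polr3e, another subunit, fell in Sirt6mKO/mdx against Control from 205 and 308 to 115 and 125 (-1.06, SE 0.29, limma adjusted p = 0.0347), a call lost in 5 of the 6 omissions of a library.

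Among 13 other proteins that bind 7SK or release P-TEFb from it, Jmjd6 and Ddx21 were called. Jmjd6, whose protein takes part in the release of P-TEFb, was at 938 and 952 (Control), 272 and 255 (mdx) and 523 and 519 (Sirt6mKO/mdx). It fell in mdx (-1.84, SE 0.23, limma adjusted p = 9.5e-05). Its difference of 0.98 in Sirt6mKO/mdx against mdx lay just under the minimum fold (adjusted p = 0.0178). In that comparison 0 of the 13 were called by limma, with 6 at an unadjusted p under 0.05. Ddx21, an RNA helicase, was at 802 and 1564 in Control and 495 and 402 in Sirt6mKO/mdx (-1.33, SE 0.30, limma adjusted p = 0.0123). Its difference was -0.84 without Control replicate 2, and the call was lost without that library or either Sirt6mKO/mdx library. Ssb, the La protein that binds the ends of new RNA polymerase III transcripts, was at 391 and 503 (Control), 937 and 797 (mdx) and 409 and 605 (Sirt6mKO/mdx). Its difference of 0.96 in mdx (limma adjusted p = 0.0225) was likewise under the minimum fold.

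The recruiters of P-TEFb, the BET proteins and the super elongation complex, held 12 tested genes. Aff1, a scaffold of that complex, was at 1001 and 549 (Control), 240 and 327 (mdx) and 927 and 566 (Sirt6mKO/mdx). It fell in mdx (-1.40, SE 0.32, limma adjusted p = 0.00793) and was higher again in Sirt6mKO/mdx (1.37, limma adjusted p = 0.0162). The first call was lost without Control replicate 1 (-0.97) or mdx replicate 1 (-1.18). Ell2, an elongation factor of the complex, ran alike, at 364 and 299, then 89 and 123, then 251 and 201 (-1.65 and 1.09, SE 0.29, limma adjusted p = 0.00137 and 0.0302). Scaled to the same total, the differences of Aff1 and Ell2 between Sirt6mKO/mdx and mdx were 0.74 and 0.47 and not called, and both calls were lost without any 1 of the 4 libraries compared. Aff4, a paralog of Aff1, was not called, at 1882 and 1875, then 1041 and 1193, then 1312 and 1037 (-0.75 in mdx, limma adjusted p = 0.0521). Eaf1, which binds ELL proteins, was at 228 and 322 in Control and 101 and 166 in Sirt6mKO/mdx (-1.06, SE 0.31, limma adjusted p = 0.0471). It was -0.70 without Sirt6mKO/mdx replicate 1 and -0.81 without Control replicate 2, and its call was lost in 5 of the 6 omissions of a library.

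Of 9 other transcription kinase and cyclin genes, Ccnc and Mnat1 were called. Ccnc, cyclin C of the Mediator kinase, was at 71 and 81 (Control), 266 and 240 (mdx) and 248 and 287 (Sirt6mKO/mdx). It rose in both comparisons with Control (1.72 and 1.80, SE 0.28, limma adjusted p = 0.000767 and 0.000981), the second call being lost without Sirt6mKO/mdx replicate 2. Mnat1, which assembles the CDK7 kinase of TFIIH, was at 95 and 147 in Control and 289 and 275 in mdx (1.25, SE 0.29, limma adjusted p = 0.00926), a call lost without Control replicate 1 or either mdx library. Between Sirt6mKO/mdx and mdx limma called 0 of the 9, with 2 at an unadjusted p under 0.05.

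Factors of pausing and elongation made up 15 genes, of which Polr2a alone was called. Polr2a, the largest subunit of RNA polymerase II, was at 1834 and 1022 (Control), 539 and 619 (mdx) and 1218 and 1124 (Sirt6mKO/mdx). It fell in mdx (-1.24, SE 0.28, limma adjusted p = 0.00778) and was higher again in Sirt6mKO/mdx (1.02, limma adjusted p = 0.0366). Without Control replicate 1 the first difference was -0.82 and not called, and the call was also lost without mdx replicate 1. The second was 0.39 and not called when scaled to the same total, and its call was lost without any 1 of the 4 libraries compared. Supt5 of DSIF was at 653 and 782, then 647 and 654, then 730 and 566 (limma adjusted p = 0.751 in mdx). Nelfe of NELF was at 137 and 163, then 115 and 111, then 94 and 89 (limma adjusted p = 0.42 in mdx). Between Sirt6mKO/mdx and Control limma called 0 of the 15, with 3 at an unadjusted p under 0.05.

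**Figure D5:**
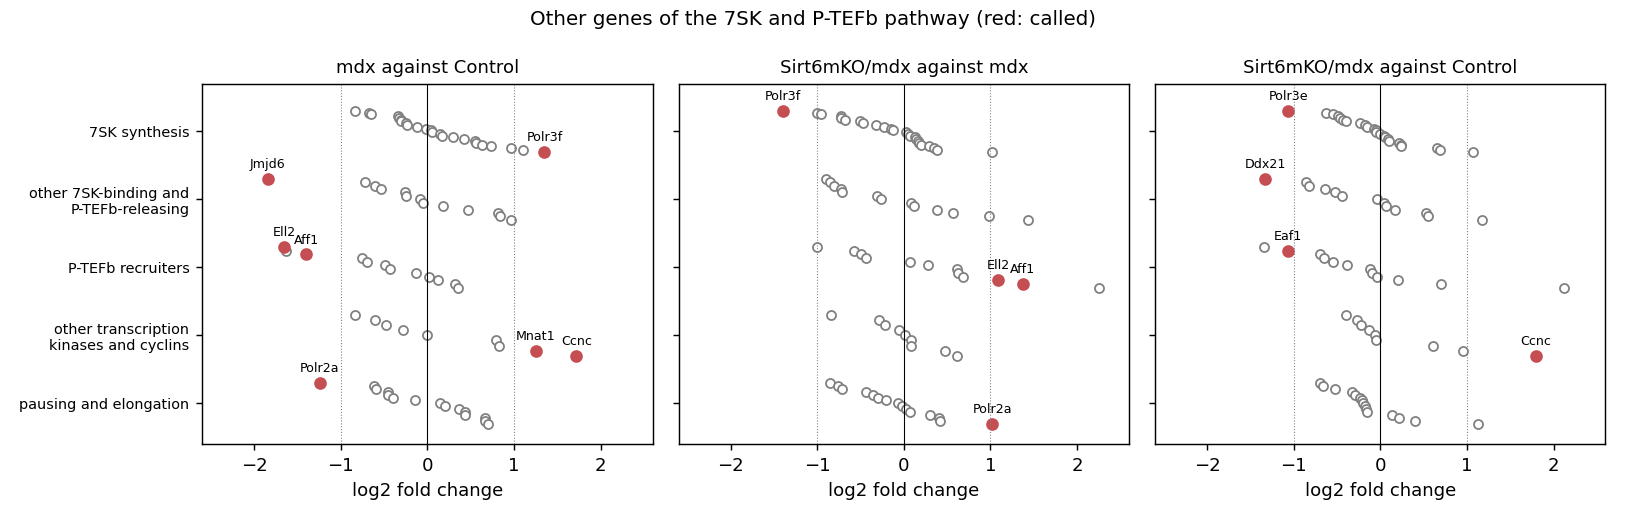
Log2 fold change of the 73 tested genes of the pathway in 3 comparisons, each row a list and each point a gene, with values used as deposited. Red points with names are called genes, open points are not, and dotted lines mark the minimum log2 fold change of 1; the called genes number 7, 4 and 4.

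Immediate early genes, a class that P-TEFb is known to serve, were read from a list of 21 genes that also holds the heat shock chaperone genes Hspa1a and Hspa1b, and that was chosen with these results known. All 21 were called lower in mdx against Control, with log2 fold changes from -5.42 to -1.58, where 14.2% of all genes were called. All 21 were called higher in Sirt6mKO/mdx against mdx, where 8.17% of all genes were called, and 3 were called lower in Sirt6mKO/mdx against Control, beside 7.87%. Without the heat shock genes, the other 19 summed to 87877 to 91257 in Control, 11366 to 13357 in mdx and 75700 to 77471 in Sirt6mKO/mdx. The summed value of the 21 was 156121 to 165273 in Control, 23272 to 25599 in mdx and 114563 to 125453 in Sirt6mKO/mdx. Of the 8 genes, Cdk9, Hexim1 and Mepce were also lowest in the mdx libraries. The others were not: Larp7 was highest there, Ccnt1 and Ccnt2 had their lowest group mean in Sirt6mKO/mdx, and Rn7sk and Hexim2 theirs in Control. Whether the 8 genes and the early genes are linked was not tested. Markers of myofibres summed to 5029 to 6103 in Control, 991 to 2930 in mdx and 3193 to 6538 in Sirt6mKO/mdx, and 3 of the 5 were called lower in mdx. In Sirt6mKO/mdx against mdx 2 of the 5, Acta1 and Myh1, were called higher. Endothelial markers summed to 752 to 905, 401 to 407 and 608 to 622 in the same order of groups, with 2 of 4 tested called lower in mdx. Tek, which was not called, made up most of each sum, at 669 and 631 (Control), 379 and 348 (mdx) and 503 and 469 (Sirt6mKO/mdx). Fibro-adipogenic markers summed to 1726 to 2261, 2859 to 4689 and 2235 to 3672, with Col1a1 and Ly6a, 2 of 5, called higher in mdx and Col1a1 called lower again in Sirt6mKO/mdx against mdx (-1.08). Without Col1a1 the other 4 summed to 1092 and 1399 (Control) and 2676 and 961 (mdx), which overlap. Smooth muscle and pericyte markers summed to 1050 to 1904, 2534 to 3123 and 1394 to 1846, with Acta2, 1 of 5, called higher in mdx. Without Acta2 the other 4 summed to 243 and 300 (Control) and 286 and 200 (mdx), which overlap. MuSC markers summed to 22616 to 23583, 18892 to 22287 and 17253 to 19652. These sums depend on Sdc4, which alone was at 7692 and 6224 (Control), 1100 and 1049 (mdx) and 2753 and 2822 (Sirt6mKO/mdx). In mdx against Control 4 of the 10 markers had a log2 fold change above 0 and 6 below. Vcam1, among the former, went from 3730 and 3697 to 7031 and 5753. Leukocyte and macrophage markers (80 to 184), erythroid markers (6 to 84) and Schwann cell markers (23 to 73) had low sums in every library. The part of immediate early and heat shock genes and of other cell types in the values of the 8 genes was not tested.

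The genes most like Rn7sk over the 6 libraries were named by Pearson's r on log2(value + 1) among 9666 genes with a mean of at least 50. The 10 highest were the noncoding RNA 2410004N09Rik (r = 0.9985), Ppp1cb, Lin7c, Tvp23b, Yipf4, the small Cajal body RNA Scarna8, Pdcd5, Rbm7, and the snoRNA genes Gm23245 and Snord15a (r = 0.9878). Ppp1cb was at 1218 and 1171 (Control), 1884 and 1666 (mdx) and 2233 and 2915 (Sirt6mKO/mdx), a much smaller range than that of Rn7sk. Scarna8 was at 669 and 706, then 1891 and 1250, then 3648 and 4978. The genes most like Hexim1 were Ilkap, Heca and Gm26742 (r = 0.9961 to 0.9952), and those most like Larp7 were Iigp1, Upf2 and Spin1 (r = 0.9856 to 0.985). With 6 libraries in 3 groups that share their scaling, such values describe a shared profile only.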

How the data were processed

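Per the labels and the study's methods, MuSCs were sorted by flow cytometry and RNA was isolated, depleted of ribosomal RNA and sequenced on an Ion Torrent instrument. The submitters' processing notes name FastQC 0.10.1, STAR 2.4.2a, featureCounts 1.4.5-p1 and DESeq2 1.6.0. Reads on several genes or places were left out, and the use of strand is not given in the sources used here. The deposited table holds, for 22706 genes, read counts that the authors had divided by a size factor per library and rounded, and its unit was therefore taken as a score (a normalised read count), not a raw count. Size factors recovered from skipped and doubled whole numbers were 0.537 to 1.53, and they gave the approximate depths of 4397300 to 9743941 reads, which limit the precision of low values.

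Here, log2(value + 1) was fitted with limma 3.58.1 (R 4.3.3), whose prior variance was let follow the mean, with all 6 libraries in 1 fit and no block. Genes with a mean of at least 5 over the 6 libraries were tested (15915), two-sided, with Benjamini-Hochberg adjustment over all of them. A gene was called at an adjusted p of at most 0.05 and an absolute log2 fold change of at least 1. Fold changes on this scale understate the change of low genes. The test and the recovery of size factors were tested on simulated data. Gene lengths, types, overlaps and the sequences were read from the GENCODE annotation and transcripts of GRCm38, which held 98.5% of the genes. The 8 genes, the lists and the naming rule were chosen with earlier results of these data known. Named were the 8 genes, every pathway gene called (at most 10 per comparison), Supt5, Nelfe, Aff4, Ell2 and Ssb, and the 10 genes most like Rn7sk and 3 each most like Hexim1 and Larp7. A further gene that the rule names is not reported here. Other genes named, among them Sirt6, Xist, Ddx3y and the short RNAs, are context.

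The replicate numbers of the labels were not taken as pairs. Alternatives were another pseudocount (0.1), no minimum mean or one of 50, other scalings, other prior variances, only the 4 libraries compared, a replicate block and the omission of each library. Scaling by protein-coding genes or by snoRNAs was chosen after seeing the data.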

Additional observations from a re-analysis of the deposited data

How the results depend on the processing

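The log2 fold changes of Rn7sk lay above 0 under every alternative run. In mdx against Control, Sirt6mKO/mdx against mdx and Sirt6mKO/mdx against Control they were 0.88, 0.29 and 1.17 when libraries were scaled by snoRNAs. The limma SE there was 0.89 in each comparison, larger than the 0.29 against mdx. Scaling to the same total gave 1.04 and 2.67 in the latter comparisons, and leaving the 10 most abundant genes out of the total gave 1.21 against mdx. Leaving out each library in turn gave 1.35 to 1.87, 1.22 to 2.13 and 2.82 to 3.73.

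Of the pathway genes, 7, 4 and 4 were called. With no minimum mean limma called 3, 0 and 1 (24, 22 and 16 at an unadjusted p under 0.05), and with 1 prior variance for all genes 2, 0 and 0 (16, 13 and 10 at an unadjusted p under 0.05). Scaling to the same total gave 20 and 21 in the comparisons of Sirt6mKO/mdx, and the fit of only the 4 libraries compared gave 2 against Control. Leaving out each library gave 3 to 9, 0 to 4 and 0 to 4. A library left alone in its group was taken to vary like the others. The causes were not tested.

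Same-numbered libraries did not deviate together (correlations of -0.128, 0.119 and 0.00934), so the labels' numbers were not treated as pairs. With the replicate block 7, 4 and 4 pathway genes were called, and Rn7sk differed by 1.61, 1.67 and 3.28.

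Signs turned for some genes that were not called. Scaled to the same total, Aff4 differed by -0.56 against mdx, and Ssb by -0.44 in Sirt6mKO/mdx against Control. Supt5 differed by 0.03 (mdx against Control) and 0.019 (Sirt6mKO/mdx against Control) when scaled to protein-coding genes, and by 0.026 against mdx when scaled to the upper quartile. Without single libraries Aff4 ranged from -0.10 to 0.24 against mdx and Ssb from -0.12 to 0.45 in Sirt6mKO/mdx against Control, and Supt5 from -0.20 to 0.17 against mdx and from -0.34 to 0.031 against Control. Among the other 7 genes, scaling by snoRNAs moved all 21 values by more than their SD and turned the sign of 8. Under the other alternatives run for them, 37 of 210 values moved by more than their SD and 7 changed sign. Of 280 values of named pathway genes, 47 lost a call, 6 gained one and 11 changed sign.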
